A study of Homo sapiens with 8 samples.

Results

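Antisense lncRNAs named after the gene they run against were followed in EndoC-βH5 cells under cytokine stress, each beside its host gene. Members were lncRNA genes whose symbol ends in -AS and a number and whose mean over the 8 libraries was at least 1 CPM (the reads of a gene as a share of all reads, scaled by a fixed factor). USP30-AS1, CYLD-AS1 and ETV7-AS1 were left out by name. Of 16525 listed genes, 480 were lncRNAs with such a symbol and 346 met the rule. A further 132 lay below the limit, and 310 of the 346 had a listed host, the gene named before -AS. The study lists USP30-AS1, CYLD-AS1 and ETV7-AS1 among its most upregulated lncRNAs, so the rises counted here leave out known strong ones. Apart from that exclusion, members were chosen by their mean level and not by the difference between conditions. The limit still let in 39 members that reached 1 CPM on average in control cells alone and 4 that did so in cytokine-treated cells alone, against 303 that did so in both. The symbol is an annotation, so the orientation of each pair was also read from the gene models.

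EndoC-βH5 cells are a human beta-cell line. The control group held 4 cultures that received no cytokine, and the other group held 4 cultures given IL-1β, IFNγ and TNFα together for 48 h. RNA was converted with a strand-specific mRNA kit and read as pairs, and all cultures were of the same single line, so the spread covers cultures and libraries and not donors. No replicate number stands in the column names of the deposited table. A name stem common to 1 control and 1 cytokine column ties them, and the libraries are called A, B, C and D after these stems.

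Natural antisense transcripts are made from the strand opposite to a gene, often from a start inside it or beside its promoter. Some are known to act on the host by pairing with its RNA or by bringing chromatin factors to the locus, whereas others are by-products of open promoters that the nuclear exosome removes quickly. In beta cells exposed to IFNγ, genes are switched on through GAS and ISRE elements in their promoters, and IL-1β and TNFα act through NF-κB. In EndoC-βH5 cells, however, the study saw no effect on the NF-κB inhibitor IκBα. It proposes that IFNγ alone signalled at the time examined, and reports very low levels of the IL-1β and TNFα receptors. Combinations of the cytokines still reduced respiration most.

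The start regions belong to the 6 members with the largest rises, and are shown because the members and their hosts start close together or far apart and rose together or not. For IRF1-AS1, which has no listed window, that of IRF1 is given. The sequences are RefSeq windows on GRCh38.p14, 5′ to 3′ on the strand of the named gene. Those of antisense RNAs hold 250 bases before and 50 from the start site, and that of IRF1 the 250 bases before it. Capitals mark matches on either strand to a GAS (TTCNNNGAA), an ISRE core (GAAANNGAA) or the NF-κB consensus. On the plus strand lie PSMB8-AS1 at chr6:32843836-32844135 and PAXIP1-AS2 at chr7:154928267-154928566. Those on the minus strand are MMP25-AS1 at chr16:3059321-3059620, ELF3-AS1 at chr1:202010304-202010603, UNC5B-AS1 at chr10:71218179-71218478 and IRF1 at chr5:132490774-132491023.
PSMB8-AS1: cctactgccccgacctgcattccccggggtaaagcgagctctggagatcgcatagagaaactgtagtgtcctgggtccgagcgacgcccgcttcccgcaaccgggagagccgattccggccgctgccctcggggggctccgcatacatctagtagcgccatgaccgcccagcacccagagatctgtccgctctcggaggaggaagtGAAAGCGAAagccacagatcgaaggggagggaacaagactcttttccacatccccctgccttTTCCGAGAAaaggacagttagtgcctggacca
MMP25-AS1: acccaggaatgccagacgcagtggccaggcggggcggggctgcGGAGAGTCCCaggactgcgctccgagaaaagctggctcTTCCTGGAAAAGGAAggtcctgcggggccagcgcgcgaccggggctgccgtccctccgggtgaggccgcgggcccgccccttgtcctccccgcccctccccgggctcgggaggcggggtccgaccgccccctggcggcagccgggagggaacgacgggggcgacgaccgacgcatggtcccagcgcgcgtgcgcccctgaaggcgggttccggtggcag
UNC5B-AS1: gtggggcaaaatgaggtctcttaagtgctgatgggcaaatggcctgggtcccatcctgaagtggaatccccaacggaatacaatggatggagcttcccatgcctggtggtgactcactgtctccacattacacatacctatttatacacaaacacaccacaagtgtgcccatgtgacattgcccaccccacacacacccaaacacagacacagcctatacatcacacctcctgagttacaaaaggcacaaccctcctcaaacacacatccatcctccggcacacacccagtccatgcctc
PAXIP1-AS2: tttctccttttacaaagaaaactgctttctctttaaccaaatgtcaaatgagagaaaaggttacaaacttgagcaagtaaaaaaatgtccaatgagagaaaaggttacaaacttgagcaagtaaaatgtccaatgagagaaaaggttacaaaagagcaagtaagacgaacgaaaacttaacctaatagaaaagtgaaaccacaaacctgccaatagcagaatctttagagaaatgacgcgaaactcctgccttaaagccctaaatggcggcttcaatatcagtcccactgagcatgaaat
ELF3-AS1: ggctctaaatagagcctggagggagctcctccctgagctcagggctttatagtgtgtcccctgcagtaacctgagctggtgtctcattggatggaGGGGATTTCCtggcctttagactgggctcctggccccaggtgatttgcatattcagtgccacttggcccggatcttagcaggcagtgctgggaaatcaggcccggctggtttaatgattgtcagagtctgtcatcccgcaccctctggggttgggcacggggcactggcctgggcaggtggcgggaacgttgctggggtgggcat
IRF1: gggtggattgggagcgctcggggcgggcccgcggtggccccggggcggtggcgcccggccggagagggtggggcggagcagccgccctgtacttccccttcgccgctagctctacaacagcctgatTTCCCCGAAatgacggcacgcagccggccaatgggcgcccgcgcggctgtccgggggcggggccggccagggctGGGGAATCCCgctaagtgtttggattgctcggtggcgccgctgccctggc

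Counted from the start site, PSMB8-AS1 holds an ISRE core at positions -44 to -36 and a GAS at positions 19 to 27. PSMB8 has 2 RefSeq windows, and the one at chr6:32843998-32844297 shares 138 bases with that of PSMB8-AS1, both matches among them, on the other strand. ELF3-AS1 and ELF3 share 267 bases, in which 1 NF-κB match lies. In MMP25-AS1 the GAS and the ISRE core overlap by their last and first bases, and an NF-κB match lies before them. In IRF1 the GAS lies at positions -124 to -116 and an NF-κB match at positions -50 to -41. UNC5B-AS1 and PAXIP1-AS2 hold none of the 3. SSTR5-AS1 and SSTR5, which both fell, share 194 bases of their windows. Such short patterns are common. At least 1 of them was found in 20.0% of 35116 RefSeq windows, a GAS in 7.66%, an ISRE core in 8.11% and an NF-κB match in 5.91%. Per gene, any match was found in 57 of 273 members with a window (20.9%), in 4 of 14 members that rose and in 18 of 97 that fell, against 23.5% of all RefSeq genes. PTPRG-AS1, which fell, also holds a GAS. These counts describe letters and not binding.

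Depth was similar in all libraries, with 36577438 to 40117636 reads on listed genes, and 1 read was worth 0.0196 to 0.0214 CPM. The treatment label held: 11 of 12 cytokine response genes, such as CXCL10, rose, and NFKBIA had a value of 0.40 on the log2 scale. All 10 beta-cell markers were listed, and by limma 5 fell (PDX1, NKX2-2, MAFA, SLC30A8 and G6PC2) and 0 rose. With TMM, an alternative scaling of the libraries, 4 fell and 1 rose. The markers did not fall as a sum, which was 6969 to 11389 CPM in control and 9047 to 16511 CPM in cytokine libraries, with overlap. Such a sum is set mostly by the most abundant genes, and the median log2 fold change of the 10 was -0.39. Leukocyte and endothelial markers were not listed, and the mesenchymal list had 2 of 3 genes, with a summed level of 0.796 to 1.54 CPM in control and 2.04 to 12.0 CPM in cytokine libraries, highest in C. Its part in the results was not tested. The counts kept strands apart. MT-ND6, on the strand opposite to MT-ND5, stood at 3.58 to 83.1 CPM while MT-ND5 stood at 3609 to 13560 CPM. GNAS-AS1 was at 0.0389% of the CPM of GNAS, the lowest share of any pair, so reads of a host did not reach its antisense RNA above that level there.

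Antisense RNAs were mostly lower after cytokines. Of the 346, 123 fell (35.5%) and 15 rose (4.34%) by limma, past a log2 fold change of 0.5 in size with an FDR under 0.05, and 208 were not called. Among all 16525 genes the same rule called 17.5% lower and 9.52% higher. LncRNAs as a class lay closer to the members: of 1546 lncRNAs at 1 CPM or more, members included, 28.3% were lower and 5.11% higher. Of the 1200 lncRNAs that were not members, 315 fell (26.2%), so the fall was shared with other lncRNAs, and the gap between 35.5% and 26.2% was not tested.

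The shift ran through most of the distribution. The median log2 fold change was -0.50 in members, -0.44 in other lncRNAs, -0.13 in host genes, -0.12 in protein-coding genes at 1 CPM or more and -0.17 in all genes. A fold change above 0 was seen in 46 members and one below 0 in 300. The median level of the members was 3.95 to 4.22 CPM in the control libraries and 2.65 to 3.15 CPM in the cytokine libraries, so the groups did not overlap. Per library pair the members' median was -0.42 within A and B and -0.60 within C and D. All 138 called members moved the same way within both, which adds little, since the calls came from these same libraries. Single members lay apart, with every cytokine library below every control library, in 136 cases and above in 16, against 21.9% and 10.8% of all genes. In bulk RNA, fewer cells that make an RNA and less RNA per cell cannot be told apart.

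**Figure D1:**
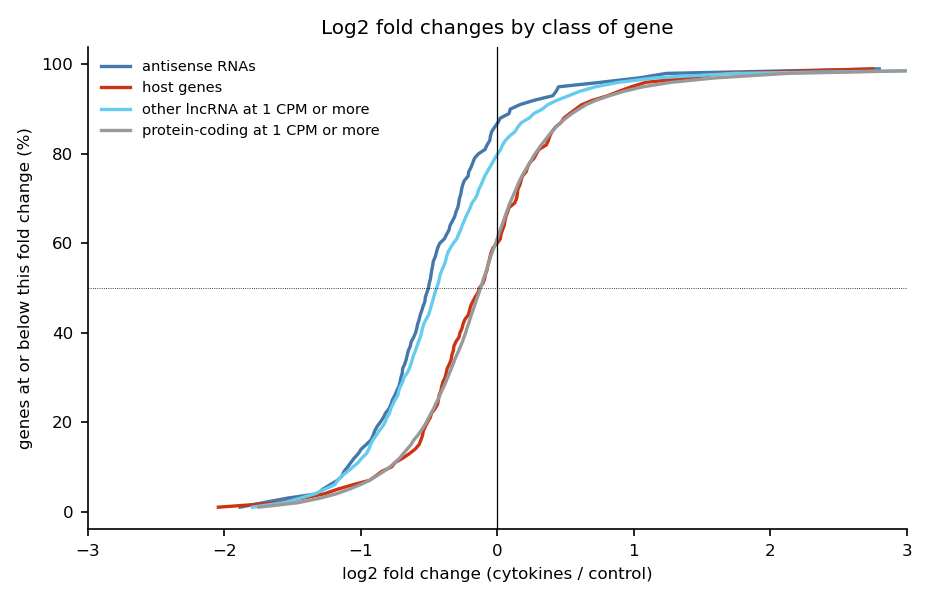
Percentiles of the log2 fold change (cytokines over control, horizontal axis) against the percentage of genes at or below it, for the 346 antisense RNAs, the 309 hosts, the other 1200 lncRNAs and 12656 protein-coding genes at 1 CPM or more. At the median, antisense RNAs (-0.50) and other lncRNAs (-0.44) lie close, left of the hosts (-0.13) and the coding genes (-0.12). At the 90th percentile they lie apart, at 0.09 and 0.33, against 0.57 for hosts and 0.60 for coding genes. At the 1st percentile the hosts (-2.04) lie left of the antisense RNAs (-1.89).

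Scaling set part of this number. CPM divides by the whole library, and under TMM scaling the median of all genes moved from -0.17 to -0.02. Relative to that point the members remained low, with a median of -0.36, 81 lower and 16 higher. The background moved with them, to 11.7% lower and 13.0% higher for all genes and 20.2% lower and 5.82% higher for lncRNAs. All 15 rises and 81 of the 123 falls were called under both scalings. With the replicate block (A to D), 171 members were lower and 17 higher, beside 43.6% and 6.66% of lncRNAs.

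The share called lower was alike over the range of levels. Of 100 members between 1 and 2 CPM 30 fell, of 114 between 2 and 5 CPM 41 fell, of 73 between 5 and 10 CPM 30 fell, and of 59 at 10 CPM or more 22 fell. The medians of these bands were -0.57, -0.51, -0.50 and -0.44. Just inside the limit stood IPO9-AS1 and YWHAH-AS1, at means of 1.23 and 1.37 CPM in control and 0.779 and 0.642 CPM in cytokine libraries. Just outside stood HEXA-AS1 (1.11 and 0.865 CPM) and NCAM1-AS1 (1.79 and 0.180 CPM).

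Hosts were called about as often as protein-coding genes in general. All but ST20 of the 309 hosts were protein-coding, 31 rose and 52 fell, against 10.3% higher and 16.9% lower among coding genes at 1 CPM or more. Under TMM the balance turned, with 49 higher and 31 lower. It also turned for all genes, from 9.52% higher and 17.5% lower to 13.0% and 11.7%. Antisense RNAs were usually the minor partner, with a median of 13.7% of the host's CPM. Per kilobase of exon, 84 of 310 stood above their host, and the median ratio of antisense RNA to host was 0.408. The members had a median exon length of 2753 bases and the hosts 6203 bases.

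The call of the host went with that of its antisense RNA. Where the host fell (53 pairs, since PTOV1 has 2 antisense RNAs), 28 antisense RNAs fell and 0 rose by limma. Where the host was not called (226 pairs), 81 fell and 5 rose. Where the host rose (31 pairs), 4 fell and 7 rose. The medians of the antisense RNAs in these classes were -0.68, -0.52 and -0.26, so the RNAs lay below 0 on balance even beside induced hosts. In all, 35 pairs were called the same way and 4 in opposite ways. Such counts were not made for other opposite-strand pairs. Falls far outnumbered rises among the antisense RNAs, and whether the counts go beyond this was not tested. The count of opposite pairs was small and moved with the fit, to 10 with the replicate block, 5 under TMM, 6 without control C and 2 without control D or without cytokine library C.

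**Figure D2:**
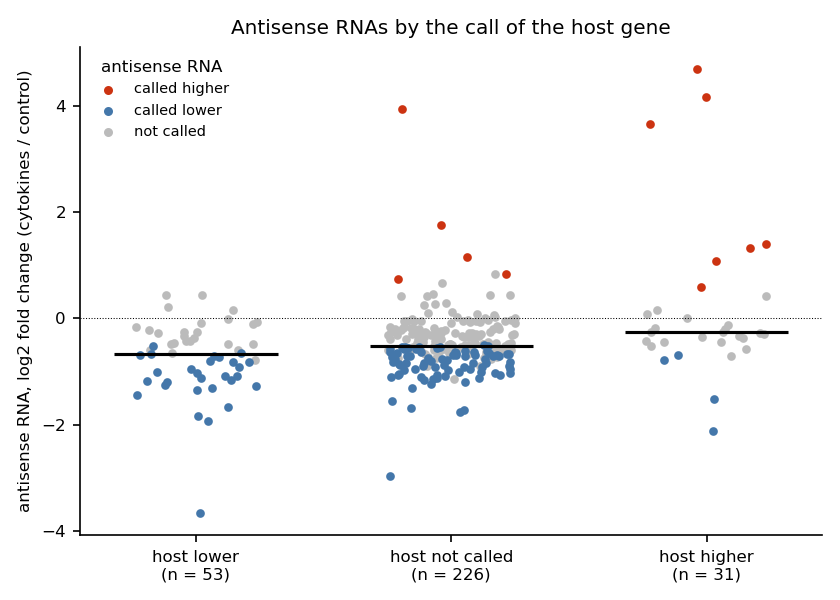
Log2 fold changes of the 310 antisense RNAs with a listed host (vertical axis), grouped by whether the host was lower, not called or higher, with a bar at each median. The medians rise from -0.68 through -0.52 to -0.26, and the 3 largest rises beside induced hosts stand far above the rest of their class.

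Over the 310 pairs the fold changes of antisense RNA and host had a Pearson r of 0.51 and a Spearman rho of 0.21, as a description across genes that share libraries. Without the 4 largest rises r was 0.24 and rho 0.18. The antisense RNA had the lower fold change in 233 pairs and the higher in 77, with a median difference of -0.37.

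**Figure D3:**
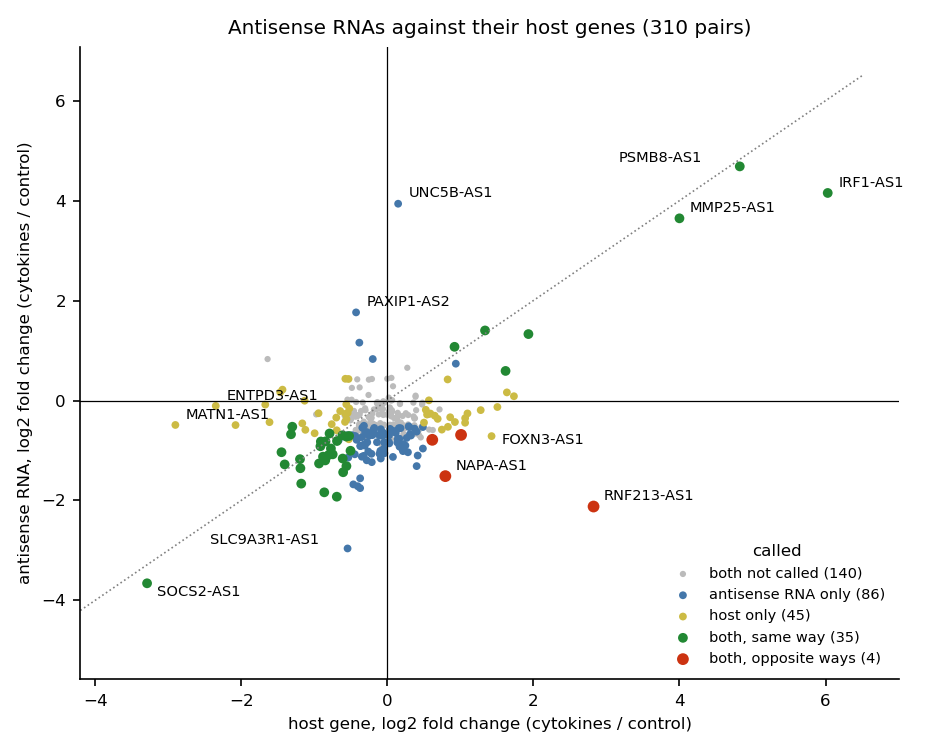
Log2 fold change of each host (horizontal axis) against that of its antisense RNA (vertical axis) for 310 pairs, coloured by which of the pair was called, with equal change on the dotted line. Most points lie below the line, 3 induced pairs lie at the upper right and RNF213-AS1 lies alone at the lower right.

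In 3 of the 4 largest rises the host rose as well. PSMB8-AS1 (ENSG00000204261, chr6:32844086-32846495, plus strand) starts 617 bases inside PSMB8, a catalytic subunit of the immunoproteasome, and shares exon bases with it. It stood at 0.192, 0.444, 0.458 and 0.802 CPM in control libraries A to D, or 9 to 41 reads, and at 12.5, 12.7, 14.6 and 14.8 CPM in cytokine libraries A to D. PSMB8 went from 3.37 to 5.36 CPM in control to 100 to 176 CPM in cytokine libraries. Every cytokine library lay far above every control library for both genes. The log2 fold changes were 4.69 ± 0.30 (SE, FDR 1.13e-06, limma) and 4.83 ± 0.21 (FDR 4.58e-08). The antisense RNA kept its ratio to the host, at a log2 value of -3.08 ± 0.74 (SD, n = 4) in control and -3.22 ± 0.29 in cytokine libraries (exact permutation p = 0.771).

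IRF1-AS1 (ENSG00000197536, chr5:132410636-132488702, plus strand) overlaps exons of IRF1, the transcription factor that carries much of the IFNγ response. Its values were 2.12, 2.09, 0.836 and 1.70 CPM in control and 36.6, 42.6, 16.4 and 31.7 CPM in cytokine libraries, lowest in C in both groups. IRF1 was at 10.3 to 12.8 CPM in control and 635 to 977 CPM in cytokine libraries, highest in C. The antisense RNA rose by 4.15 ± 0.34 on the log2 scale (FDR 7.18e-06) and IRF1 by 6.03 ± 0.15. The ratio of antisense RNA to host therefore went down, from -2.75 ± 0.53 to -4.62 ± 0.89 (exact permutation p = 0.0286, the smallest that 4 against 4 can give), without overlap.

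MMP25-AS1 (ENSG00000261971, chr16:3037403-3059370, minus strand) overlaps exons of MMP25, a membrane-bound metalloproteinase, and is the major partner. Its control values were 14.2, 11.8, 6.07 and 10.6 CPM and its cytokine values 183, 183, 66.9 and 122 CPM. MMP25 had 4 to 7 reads in each control library and 3.05 to 3.92 CPM in cytokine libraries. Both groups stood apart for both genes. The changes were 3.65 ± 0.34 (FDR 1.78e-05) and 4.00 ± 0.24, and the ratio did not differ beyond its spread (exact permutation p = 0.514), although it went down within each of the library pairs A to D. The 0.1 CPM added before taking logs understates the change of a host this low, and on the recovered reads edgeR gave 3.84 for MMP25-AS1 and 4.97 for MMP25.

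UNC5B-AS1 (ENSG00000237512, chr10:71217224-71218228, minus strand) is a short RNA inside an intron of UNC5B, a netrin receptor, and rose without it. It stood at 0.470, 0.254, 0.617 and 0.430 CPM in control and 5.62, 5.77, 15.7 and 7.90 CPM in cytokine libraries, highest in C. UNC5B stood at 67.5, 61.8, 59.8 and 50.9 CPM in control and 72.1, 67.3, 71.0 and 55.8 CPM in cytokine libraries, so its groups overlapped. The antisense RNA rose by 3.94 ± 0.35 (FDR 1.31e-05), whereas UNC5B had a value of 0.15 ± 0.13 (FDR 0.42). The ratio went up from -6.83 ± 0.46 to -3.04 ± 0.69 (exact permutation p = 0.0286), the largest rise of any pair with ratios apart.

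The other rises were smaller. ELF3-AS1, beside the epithelial ETS factor ELF3, went from 2.22 to 3.11 CPM to 6.99 to 8.35 CPM, a change of 1.40 against 1.34 for ELF3. TNFRSF14-AS1 rose by 1.33 and TNFRSF14, the receptor HVEM, by 1.93. ZEB1-AS1 rose by 0.59 and ZEB1, a repressor of epithelial genes, by 1.62. PRDM6-AS1 and PRDM6 rose by 1.07 and 0.92, the antisense RNA with overlapping libraries. These 4 pairs with PSMB8, IRF1 and MMP25 are the 7 in which both rose.

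In 5 pairs the antisense RNA rose and the host was not called. PAXIP1-AS2 went from 3.68, 5.21, 3.74 and 4.71 CPM to 15.3, 15.5, 13.7 and 14.7 CPM, without overlap, and rose by 1.76 ± 0.16 (FDR 1.54e-05), while PAXIP1, a protein of the DNA damage response, had a value of -0.43 (FDR 0.0665). ACVR2B-AS1, in an intron of the activin receptor gene ACVR2B, rose by 1.16 against a value of -0.38 for the host. ST7-AS1 rose by 0.83 against a value of -0.20 for ST7. ANXA2R-AS1 rose by 0.74, while ANXA2R had a larger value of 0.94 (FDR 0.0955) that was called higher under TMM (FDR 0.0499). DCST1-AS1, NPSR1-AS1 and CBR3-AS1, which have no listed host, rose by 1.23, 1.08 and 0.98.

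**Figure D4:**
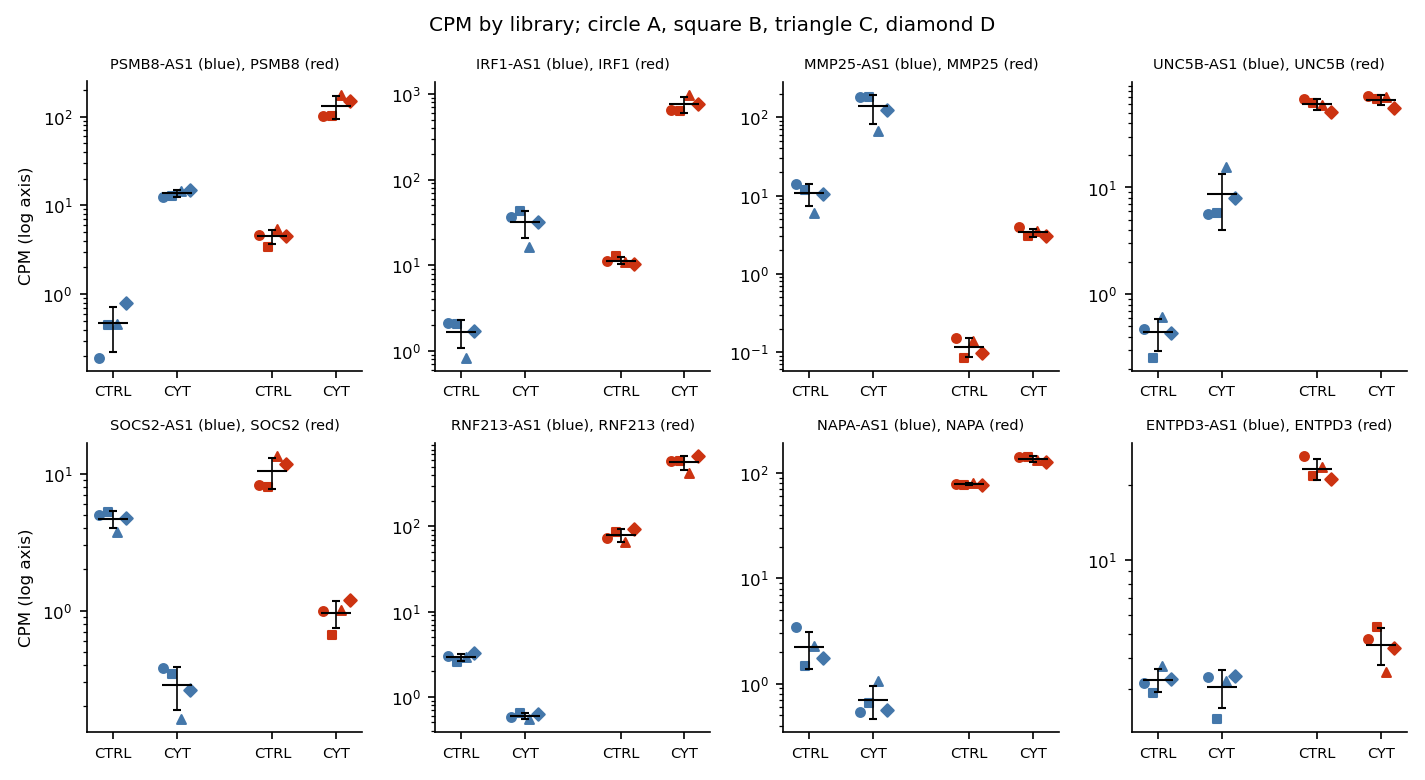
CPM on a log axis in each library for 8 antisense RNAs (blue) and their hosts (red), with the mean and SD of 4 libraries per group and a symbol for each of A to D. PSMB8, IRF1 and MMP25 rise with their antisense RNAs and SOCS2 falls with its own, while UNC5B, RNF213, NAPA and ENTPD3 part from theirs.

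The largest fall was again shared with the host. SOCS2-AS1 (ENSG00000246985, chr12:93542463-93571768, minus strand) overlaps the first part of SOCS2, a feedback inhibitor of cytokine and growth hormone signalling. Its values were 4.98, 5.27, 3.74 and 4.77 CPM in control and 0.383, 0.342, 0.161 and 0.261 CPM in cytokine libraries, the latter 8 to 18 reads. SOCS2 went from 8.04 to 13.4 CPM to 0.662 to 1.19 CPM. Neither gene's groups overlapped. The changes were -3.66 ± 0.26 (FDR 2.31e-06) and -3.29 ± 0.24 (FDR 3.24e-06), and the ratio did not differ beyond its spread (exact permutation p = 0.371), although it too went down within each library pair.

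SGO1-AS1 and TMPO-AS1 fell by 1.84 and 1.92, and SGO1, which guards centromeric cohesion, and TMPO, a protein of the nuclear lamina, fell by 0.86 and 0.69. The ratio of antisense RNA to host went down without overlap for SGO1-AS1 (exact permutation p = 0.0286) and with overlap for TMPO-AS1 (exact permutation p = 0.0571). SGO1-AS1 stood at 9.51, 7.45, 7.80 and 8.92 CPM in control and 3.30, 2.41, 1.11 and 2.97 CPM in cytokine libraries. The SGO1 call was lost without control D or without cytokine library C (-0.64 and -0.75), and the TMPO call without control D or without cytokine library B (-0.56 and -0.59). Both antisense calls stood in every such fit.

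Other falls ran beside hosts that changed little. SLC9A3R1-AS1 (chr17:74747319-74748912, minus strand), which starts 260 bases inside the gene of the scaffold protein SLC9A3R1, was at 2.18, 3.30, 5.02 and 6.02 CPM in control and 0.468, 0.150, 0.564 and 0.603 CPM in cytokine libraries. It fell by 2.96 ± 0.40 (FDR 0.000302), whereas SLC9A3R1 had a value of -0.54 (FDR 0.214) that was called only with the replicate block (FDR 9.74e-07). MRPL23-AS1 and PPM1F-AS1 fell by 1.75 and 1.71 beside values of -0.37 and -0.40 for MRPL23 and PPM1F. DIRC3-AS1, with no listed host, fell by 1.74.

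Antisense RNA and host both fell in 28 pairs. Of these, SSTR5-AS1 starts 50 bases before the somatostatin receptor gene SSTR5 on the other strand. It was at 38.4, 29.7, 22.8 and 17.1 CPM in control and 7.09, 7.20, 11.8 and 7.05 CPM in cytokine libraries. It fell by 1.66 ± 0.26 (FDR 0.000709) and SSTR5 by 1.18, from 1.86 to 2.83 CPM to 0.617 to 1.39 CPM. MNX1-AS1 and MNX1, a homeobox factor of beta-cell development, fell by 0.82 and 0.85. DLX6-AS1 and DLX6 fell by 1.17 and 1.19, and ASIC4-AS1 and ASIC4, an ion channel gene, by 1.28 and 1.40. The MNX1, DLX6 and ASIC4 pairs were chosen after their values were seen.

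Only 4 pairs were called in opposite ways, always with the host higher. Since 15 members rose in all, few pairs could show the other order. RNF213-AS1 (ENSG00000263069, chr17:80351828-80415168, minus strand) overlaps exons at the end of RNF213, a large ubiquitin ligase of antiviral defence. It stood at 2.97, 2.56, 2.97 and 3.23 CPM in control and 0.575, 0.641, 0.544 and 0.623 CPM in cytokine libraries. RNF213 stood at 72.3, 86.4, 65.3 and 94.6 CPM in control and 586, 590, 423 and 667 CPM in cytokine libraries. The groups were far apart in both genes and in opposite order. The changes were -2.12 ± 0.20 (FDR 2.31e-05) and 2.82 ± 0.17 (FDR 6.02e-07), and the log2 ratio went from -4.71 ± 0.27 to -9.65 ± 0.21 (exact permutation p = 0.0286), the largest shift of any pair.

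NAPA-AS1 (chr19:47484282-47501597, plus strand) lies over exons of NAPA, which takes SNARE complexes apart after vesicle fusion. It fell from 3.42, 1.48, 2.29 and 1.76 CPM to 0.532, 0.662, 1.07 and 0.563 CPM, by 1.51 ± 0.31 (FDR 0.00408). NAPA rose from 76.4 to 80.8 CPM to 126 to 143 CPM, by 0.80 ± 0.10 (FDR 0.000189).

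The other opposite pairs were less firm. PTPRG-AS1, over the receptor phosphatase gene PTPRG, had a value of -0.69 ± 0.22 (FDR 0.0379) with overlapping libraries, beside 1.01 for PTPRG. Its call was lost under TMM (FDR 0.0805) and without any one of control A, C or D or cytokine libraries A, B or C (FDR 0.0613 to 0.107). H1-10-AS1 and the linker histone gene H1-10 had values of -0.79 and 0.62. The call of H1-10-AS1 was lost without control D (-0.70) or cytokine library A (-0.73) or B (-0.62). That of H1-10 was lost without control A (0.56), B (0.59) or D (0.61) or cytokine library C (0.41), where it stood at 502 CPM against 273 to 297 CPM in the other cytokine libraries.

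The ratio of antisense RNA to host within a library does not depend on the scaling of that library, apart from the 0.1 CPM added to each. That addition matters where either gene lies near 0.1 CPM. Its control and cytokine ranges stood apart in 98 of 310 pairs (31.6%), against 30.4% of 3070 listed gene pairs that overlap on opposite strands, so ratios stood apart about as often as in opposite-strand pairs in general. The direction was mostly down, in 79 pairs (25.5%), and up in 19 (6.13%). In 345 pairs of another lncRNA over a protein-coding gene on the opposite strand, 22.9% went down and 6.96% up. Read within the named pairs of libraries, the ratio moved the same way in all 4 in 193 pairs.

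In the 19 pairs whose ratio went up, the host alone was called lower in 9, of which the calls of MAGI2 and TTN were lost under TMM. The antisense RNA alone was called higher in 4 (UNC5B-AS1, PAXIP1-AS2, ACVR2B-AS1 and ST7-AS1), both were lower in 2 (FGD5-AS1 and LOXL1-AS1) and neither was called in 4 (TENM3-AS1, C1RL-AS1, PRKCQ-AS1 and SCAMP1-AS1). MATN1, a cartilage matrix gene, went from 1.55 to 2.58 CPM to 0.106 to 0.261 CPM and fell by 2.90, while MATN1-AS1 had a value of -0.49 (FDR 0.209). ENTPD3, an ectonucleotidase of the beta-cell surface, went from 21.2 to 26.2 CPM to 3.52 to 5.36 CPM and fell by 2.35. ENTPD3-AS1 stood at 3.17, 2.88, 3.72 and 3.30 CPM in control and 3.34, 2.26, 3.22 and 3.38 CPM in cytokine libraries, with a value of -0.11 (FDR 0.719). PARD6G, a gene of cell polarity, fell by 1.43 beside 0.22 for PARD6G-AS1. In the reverse case FOXN3, a forkhead repressor, rose by 1.43 from 32.1 to 37.6 CPM to 87.7 to 101 CPM, while FOXN3-AS1 in its intron had a value of -0.71 (FDR 0.164) that was called only with the replicate block (FDR 0.0261).

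**Figure D5:**
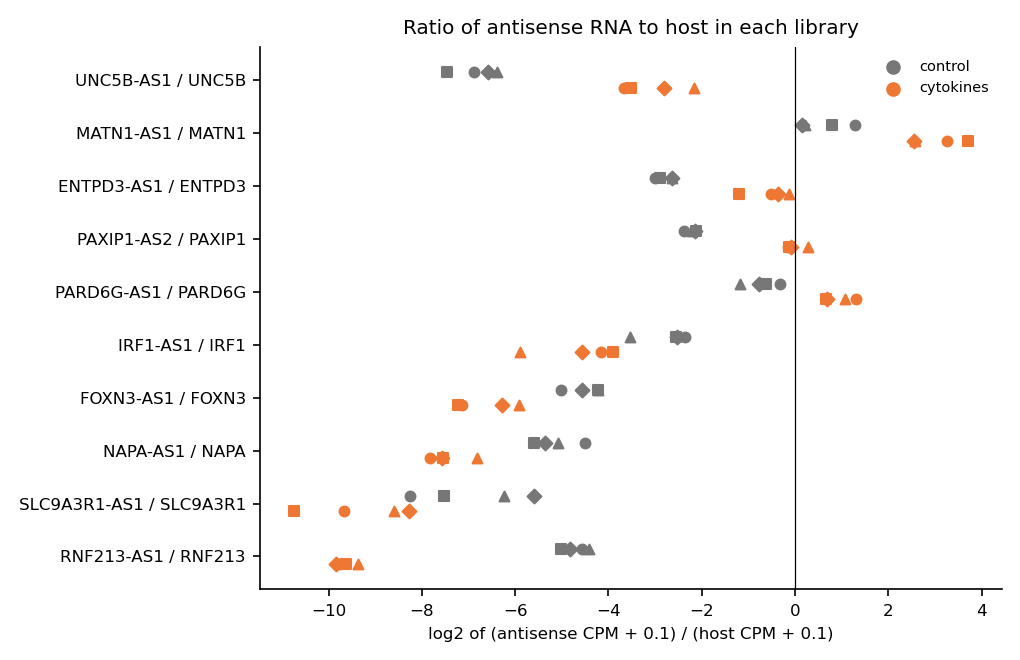
Log2 ratio of antisense RNA to host, with 0.1 CPM added to each, in the 4 control and 4 cytokine libraries of the 5 pairs with the largest rise and the 5 with the largest fall among pairs whose ratios stood apart; symbols mark A to D. RNF213-AS1 moves farthest down, to a mean of -9.65, and UNC5B-AS1 farthest up, to a mean of -3.04.

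The arrangement of the pairs was read from GENCODE 29. Exons overlapped on opposite strands in 246 pairs, gene bodies alone in 40, and 22 were head to head without overlap. FAM131B-AS2 and LYRM4-AS1 belonged to none of these classes. Antisense RNAs fell in 95, 11 and 7 of these and rose in 10, 2 and 0 by limma, with medians of -0.51, -0.52 and -0.48, so the medians were alike in the 3 arrangements. Ratios stood apart in 82 of 246 exon-overlapping pairs, 14 of 40 intronic pairs and 2 of 22 head-to-head pairs, and these shares were not tested against each other. Starts lay within 1000 bases in 126 pairs, of which 43 antisense RNAs fell and 2 rose, against 70 and 10 of the 184 with starts farther apart.

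The most abundant members were not the most responsive. FGD5-AS1 held 106, 103, 141 and 129 CPM in control and 75.8, 80.0, 86.0 and 88.9 CPM in cytokine libraries. Its fall of 0.52 passed the limit of 0.5, and it did not do so under TMM (-0.37) or without control C (-0.44), control D (-0.48) or cytokine library A (-0.48). FGD5, a guanine exchange factor gene, was at or below 1.23 CPM and fell by 1.30. BCAR3-AS1 went from 63.3 to 74.9 CPM to 30.0 to 43.9 CPM and fell by 0.84 (FDR 0.00123), while BCAR3, an adaptor of integrin signalling, had a value of -0.27. HSD17B1-AS1 had a value of -0.28.

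SOCS2-AS1 and SLC9A3R1-AS1 are also named in the study's text, as are NCAM1-AS1 and PITX1-AS1, which lay below the level limit. Among other members named by rule, TAGAP-AS1 fell by 1.02 (FDR 0.0148), from 2.79 to 4.28 CPM to 0.986 to 2.13 CPM. KLF3-AS1 fell by 0.90 (FDR 0.0263) with overlapping libraries, and its call was lost without control B (-0.84) or D (-0.77) or cytokine library A (-0.89), B (-0.84) or C (-0.81), while KLF3 had a value of 0.25. ZMIZ1-AS1 had a value of -0.51 (FDR 0.247), called only with the replicate block (FDR 0.0362), and ZMIZ1 one of -0.39.

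Few genes of the machinery that removes antisense and promoter transcripts were called. Of 27 genes of the nuclear exosome, its adaptors and termination factors, 26 were listed. By limma 0 rose and 1 fell (EXOSC5, a core subunit, by 0.79), beside 9.52% and 17.5% of all genes. The median of the list was -0.07 against -0.17 for all genes. Under TMM 1 rose (RBM7, an adaptor subunit) and 0 fell, beside 13.0% and 11.7% of all genes. The summed level of the list was 872 to 994 CPM in control and 877 to 932 CPM in cytokine libraries, so the groups overlapped. The bearing of this on the antisense RNAs was not tested.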

How the data were processed

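The authors sequenced strand-specific mRNA libraries of 4 control and 4 cytokine-treated cultures, aligned the reads to GRCh38 with TopHat2 2.1.1, counted them with HTSeq 0.9.1 at its default settings on Ensembl release 107 and deposited CPM values (counts scaled to the library total) of genes above 0.5 CPM in at least 4 samples. Not used here were 4 more columns of values, without which 371 genes are above that level in too few of the rest. Every value was a whole multiple of 1 read (within 0.01 reads, 100% of values in each library), which gave back the reads. A count of 0 allows up to 3 reads, 0.0587 to 0.0641 CPM, by counting error only. Lengths, coordinates and arrangement come from GENCODE 29, which lists 16167 of the genes, and start regions from RefSeq on GRCh38.p14.

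All 16525 genes were fitted together on log2(CPM + 0.1) by limma 3.58.1 (R 4.3.3), with its intensity trend. FDR values are Benjamini-Hochberg over all of them, and calls used the thresholds of the study. Fold changes are on this scale, which understates those of low genes. The unit was CPM, so edgeR 4.0.16, the study's tool, and DESeq2 1.42.0 were run on the recovered reads as alternatives. For ratios, an exact permutation test (2-sided, 4 libraries against 4, p of 0.0286 at the least) was used, and ± gives the SE of a fold change or the SD of 4 libraries. P-values measure the spread between these libraries. The scripts were tested on simulated data and used Python 3.11.15, pandas 2.3.3, numpy 2.4.6, scipy 1.17.1 and matplotlib 3.10.9.

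Pairs A to D come from the column names. To check them, each library's deviation from its group mean was correlated across genes, which gave 0.57, 0.59, 0.80 and 0.74 within the pairs, while control A with cytokine library B gave 0.57 and control B with cytokine library A 0.59. Named in the text are the 10 largest rises and 10 largest falls among called members whose libraries do not overlap, pairs called in opposite ways, the 5 most abundant members, the 5 largest and 5 smallest differences among pairs with ratios apart, KLF3-AS1, TAGAP-AS1 and ZMIZ1-AS1, and those next to the 1 CPM limit. Some of these are not reported here. Further pairs were named after their values were seen. The members and the lists were chosen with earlier results of these data known, and 36 members have no listed host.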

Additional observations from a re-analysis of the deposited data

Results flagged for a closer look

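Among 64 named genes, a library stood apart from the other 3 of its group in 8 of 128 groups, where chance gives about 1 in 20. The groups come from the same libraries, so they are not independent trials. Low ones were TMPO-AS1 in cytokine library C (0.705 CPM against 1.31 to 1.39 CPM), TAGAP-AS1 in cytokine library C (0.986 CPM against 2.01 to 2.13 CPM), ENTPD3-AS1 in cytokine library B (2.26 CPM against 3.22 to 3.38 CPM) and the host MRPL23 in control D (8.41 CPM against 11.4 to 11.9 CPM). High ones were MRPL23-AS1 in cytokine library A (0.809 CPM against 0.299 to 0.382 CPM), SSTR5-AS1 in cytokine library C (11.8 CPM against 7.05 to 7.20 CPM), SGO1 in control D (4.81 CPM against 2.44 to 2.69 CPM) and H1-10 in cytokine library C (502 CPM against 273 to 297 CPM).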

How the results depend on the processing

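The 15 rises were called under TMM, median-of-ratios scaling, edgeR, DESeq2, both other pseudocounts and the replicate block. The count of falls depended on scaling: with 123 falls, 31 hosts higher, 52 hosts lower and 35 pairs called the same way as reported, TMM and median-of-ratios scaling each gave 81, 49, 31 and 22, and edgeR with TMM gave 81, 48, 31 and 21. DESeq2 gave 52 hosts higher. Paired by the column names, the replicate block in limma gave 10 pairs called in opposite ways in place of 4, and in edgeR with TMM it gave 26 antisense RNAs higher, 55 hosts higher and 9 opposite pairs. The ratio moved one way in all 4 pairs of libraries for 193 gene pairs, against 98 with ranges apart. An FDR of 0.05 alone gave 7 opposite pairs, and members at 2 CPM or more gave 2, with 20 hosts higher. Adding USP30-AS1 and CYLD-AS1 back gave 17 rises. With 1 library left out at a time, rises ranged from 14 to 15 and falls from 86 to 115. In the same fits hosts higher ranged from 26 to 38 and hosts lower from 43 to 56. Pairs called the same way ranged from 25 to 32 and opposite pairs from 2 to 6. Pairs with ratios apart ranged from 105 to 124. That count could not fall below 98, because ranges that stand apart stay apart with fewer libraries. Chosen after seeing the data, CPM over nuclear genes gave 14 rises and 132 falls, and with antisense RNAs under 2% of the host's CPM left out, 278 pairs held 2 opposite pairs. No named gene reversed a called direction under the alternatives run. Read numbers limit the lowest members: a mean of 1 CPM is about 50 reads.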
